A study of Mus musculus with 8 samples.

Results

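The 57 genes described here encode proteins of mitosis and cytokinesis. They were listed by symbol as genes of the G2/M transition, the kinetochore, the spindle and cell abscission. The choice was made with earlier results of these data known, so that counts of members describe them and are not an independent test. All 57 were found among the 22520 protein-coding genes of the deposited table and all 57 passed the filter on low values. The filter asked for a signal of 1 in 4 or more of 8 libraries. Cenpf and Kif15 passed it through their WT signals, since some of their LRP1 eKO signals were below 1. Their mRNA was measured by mRNA-seq in cells that the study describes as primary liver microvascular endothelial cells (ECs), taken from C57BL/6 mice with beads carrying an antibody to PECAM-1. GEO's labels name the cells liver microvesicular cells and give an age of postnatal day 14. The 4 libraries of LRP1 eKO mice (LRP1 f/f; Cdh5-CreER+/-) were compared with 4 libraries of WT littermates (LRP1 f/f; Cdh5-CreER-/-). Both genotypes carry the floxed Lrp1 alleles, and the inducible Cre recombinase, driven by the promoter of the endothelial gene Cdh5, is present in the LRP1 eKO mice only, so that effects of Lrp1 loss and of CreER cannot be told apart. The sources used here do not say whether a library comes from 1 mouse or from a pool, how the recombinase was induced or how long the cells were kept in culture, and p-values measure only the spread between these libraries.

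In a cycling cell, the mRNAs of these genes accumulate in G2 and M phase and are low in resting cells. Cyclin B with Cdk1 starts mitosis, condensins compact the chromosomes, kinetochores bind them to the spindle, the spindle assembly checkpoint holds the anaphase-promoting complex back until every chromosome is attached, and kinesins and their partners then build the central spindle and divide the cell. Many of the genes are switched by a shared promoter code, in which the DREAM complex represses them in resting cells through the cell cycle homology region (CHR) and MuvB with B-Myb (Mybl2) and Foxm1 activates them in G2, often with the CCAAT-binding factor NF-Y. In the liver, ECs of the growing neonate divide, whereas those of the adult organ are largely quiescent.

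Promoters of some members are shown to illustrate the motifs of this code. Holding a CHR was a condition of the choice, and members without a promoter entry, Ccna2 and Kif20a among them, could not be chosen. The promoters are those of the 6 members with the smallest adjusted p that hold a CHR, by a rule given with the methods. Pttg1, the member with the highest adjusted p, is shown beside them. Each window has 200 bases, the last 50 of them after a RefSeq start site, on GRCm38.p6, 5′ to 3′ in the direction of the gene, and capitals mark the CHR (TTTGAA or TTTAAA) and the CCAAT box (CCAAT), read on either strand.
Ccnb2, chr9:70421505-70421704, minus strand: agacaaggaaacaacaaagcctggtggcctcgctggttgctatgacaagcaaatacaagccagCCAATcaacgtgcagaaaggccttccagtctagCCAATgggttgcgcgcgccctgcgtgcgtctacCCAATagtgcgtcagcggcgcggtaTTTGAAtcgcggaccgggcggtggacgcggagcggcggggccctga
Ccnb1, chr13:100786437-100786636, minus strand: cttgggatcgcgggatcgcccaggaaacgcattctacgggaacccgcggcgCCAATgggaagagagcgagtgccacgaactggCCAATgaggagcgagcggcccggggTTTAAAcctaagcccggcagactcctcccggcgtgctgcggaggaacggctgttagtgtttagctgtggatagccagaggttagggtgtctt
Cenpa, chr5:30666736-30666935, plus strand: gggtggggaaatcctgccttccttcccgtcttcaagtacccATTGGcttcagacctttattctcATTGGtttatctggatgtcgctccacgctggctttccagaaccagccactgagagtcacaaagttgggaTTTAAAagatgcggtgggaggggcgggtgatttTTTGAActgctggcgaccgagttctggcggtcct
Aurka, chr2:172370521-172370720, minus strand: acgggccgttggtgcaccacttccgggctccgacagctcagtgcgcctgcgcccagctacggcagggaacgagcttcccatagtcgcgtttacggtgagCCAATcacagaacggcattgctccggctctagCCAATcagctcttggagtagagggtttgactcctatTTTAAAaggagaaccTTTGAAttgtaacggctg
Kif2c, chr4:117178723-117178922, minus strand: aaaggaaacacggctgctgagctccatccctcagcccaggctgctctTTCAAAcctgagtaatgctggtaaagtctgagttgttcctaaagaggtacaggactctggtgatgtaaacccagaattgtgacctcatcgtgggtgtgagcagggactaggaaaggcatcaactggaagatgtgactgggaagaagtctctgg
Kif22, chr7:127042371-127042570, minus strand: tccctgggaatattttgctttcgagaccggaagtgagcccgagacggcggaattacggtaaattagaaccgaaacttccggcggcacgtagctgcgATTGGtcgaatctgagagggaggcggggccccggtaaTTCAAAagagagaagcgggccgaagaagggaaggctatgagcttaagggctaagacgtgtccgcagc
Pttg1, chr11:43425932-43426131, minus strand: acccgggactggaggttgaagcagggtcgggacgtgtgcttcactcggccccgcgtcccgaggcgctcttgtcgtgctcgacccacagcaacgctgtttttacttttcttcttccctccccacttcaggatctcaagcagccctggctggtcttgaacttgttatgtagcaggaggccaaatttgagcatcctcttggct
The B-type cyclin genes Ccnb2 and Ccnb1 hold 3 and 2 CCAAT boxes upstream of a single CHR, and in Cenpa, Aurka and Kif22 a CHR lies close to the start site in the same way. The start site of Kif2c in this table lies 3867 bases inside the gene as GENCODE M21 annotates it, and its window holds a CHR but no CCAAT box. The window of Pttg1 holds neither motif, but its start site lies 270 bases inside the GENCODE gene, so that the whole window is within the gene and the sequence upstream of the gene was not searched.

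Signals are given below in the order of replicates 1 to 4 of each genotype. The targeted gene Lrp1 had WT signals of 61.6, 58.96, 56.2 and 85.1 and LRP1 eKO signals of 6.01, 2.16, 5.15 and 4.32, 6.74% of the WT mean, with no overlap. All signals are the quantile-normalized values of the authors, the libraries sum to between 484445 and 485947 signal units, and their depth is unknown. WT replicate 4 stood apart, being the WT library farthest from the group median for 61.7% of the genes tested, and LRP1 eKO replicate 2 was the farthest of its group for 37.2%. The endothelial label was checked with 12 pan-endothelial markers, whose summed signal ran from 48.2 to 51.5 in the WT group and from 57.2 to 72.9 in LRP1 eKO. Of the 8 tested, 3 were higher and 0 were lower in LRP1 eKO. Mean signals in WT and LRP1 eKO were 1.86 and 3.70 for Cdh5 and 2.09 and 3.02 for Pecam1, and Tek and Erg were below 1 in every library. Most of the summed signal thus came from the other markers of this list. The summed signal of 12 stellate cell and fibroblast markers was 2757 to 3149 among WT libraries and 2802 to 3312 in LRP1 eKO. Of 8 tested, 2 were lower and 1 was higher in LRP1 eKO. The largest WT means on this list were those of Col1a2 (833), Acta2 (811) and Dcn (563). Lrat, Reln, Hhip and Ngfr were below 1 in every library. The summed signal of the pan-endothelial markers was thus low beside the signals of collagen genes, Acta2 and Dcn, which goes against the endothelial label. Which cells gave the latter was not tested. The unit behind the signal, and with it any correction for gene length, is also not known.

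Mitosis and cytokinesis genes were lower in LRP1 eKO than in WT libraries at every step of cell division. Of the 57 members, 54 were lower at a limma adjusted p below 0.05, 0 were higher and 3 (Smc4, Anln and Pttg1) were not called, and the mean of all 57 was lower, so that 0 were higher at an unadjusted p below 0.05 as well. Among the 11391 genes tested, 22.2% were lower and 19% were higher by the same test. Every LRP1 eKO library lay below every WT library for 54 members, a pattern seen in 22.5% of all genes tested, and for a gene with this pattern the exact two-sided permutation test gave p = 0.029, its lower limit with 4 libraries in each genotype. The median log2 fold change was -0.79 over the members and -0.01 over all genes tested, where a fold change is the difference of mean log2(signal + 1) between LRP1 eKO and WT. In bulk RNA, fewer dividing cells and less of these mRNAs per dividing cell cannot be told apart.

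The decrease was moderate in size for most members. The study's methods also set a threshold of 2-fold, but on edgeR fold changes, so that counts at the threshold are not comparable. On the log2(signal + 1) scale, a decrease of at least 2-fold was passed by 8 members, beside 0.79% of all genes tested. The 8 were Ccnb1, Ccnb2, Cenpa, Spc24, Top2a, Kif2c, Ube2c and Cdc20. The number was 5 without LRP1 eKO replicate 2, 19 with a pseudocount of 0.1 in place of 1, and 0 with a pseudocount of 5. The added pseudocount understates the change of low signals. As a plain ratio of mean signals, LRP1 eKO libraries were under 50% of the WT mean for 22 members, beside 1.58% of all genes tested. The ratio lay between 40% and 60% for 40 members, between 60% and 80% for 13, above 80% for 3 and below 40% for 1 (Cenpf, 39.05%). Ranked by fold change among the 11391 genes tested, 0 members were among the 50 lowest, 32 among the 200 lowest and 54 among the 2000 lowest.

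**Figure D1:**
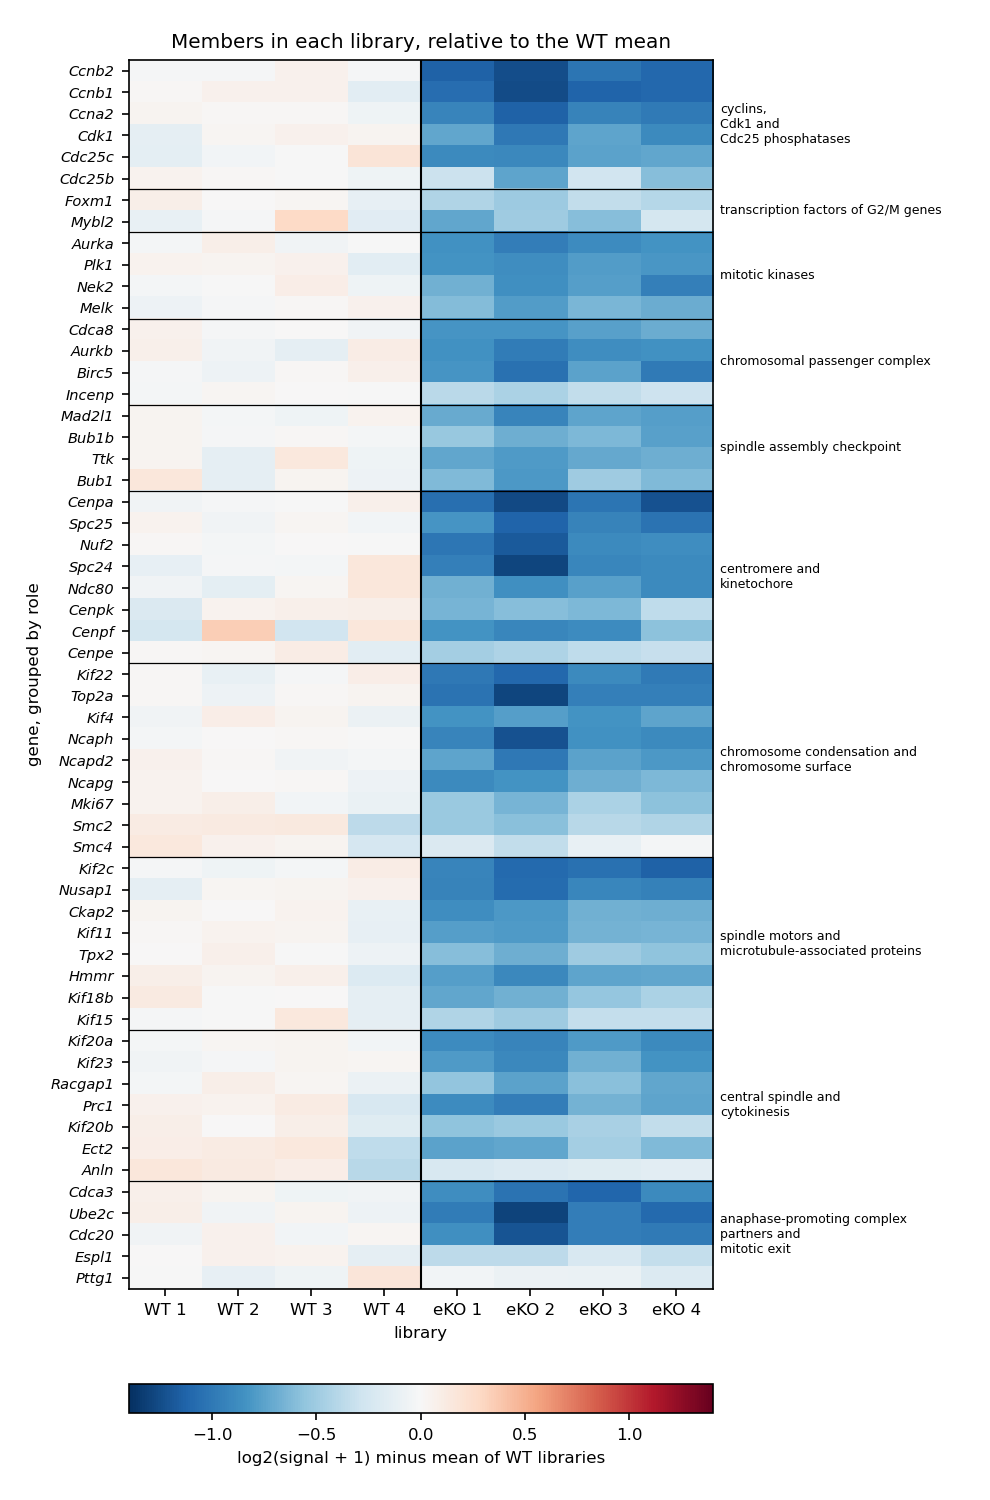
Heat map of the 57 members (rows, grouped by role) in the 4 WT and 4 LRP1 eKO libraries (columns), coloured by log2(signal + 1) minus the mean of the WT libraries. The WT columns are pale and the LRP1 eKO columns blue in nearly all rows, and the 3 rows with little colour in the LRP1 eKO columns are Smc4, Anln and Pttg1.

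The heat map of members by library shows the same separation in each library. The mean log2(signal + 1) of the 57 members was 3.49, 3.49, 3.51 and 3.44 in WT replicates 1 to 4 and 2.75, 2.64, 2.80 and 2.77 in LRP1 eKO replicates 1 to 4. The lowest WT library was thus well above the highest LRP1 eKO library, and the difference of the group means was -0.74 with SDs of 0.032 within WT and 0.071 within LRP1 eKO (n = 4 each). LRP1 eKO replicate 2 was the lowest of its group for 41 of 57 members and the highest for 0, and WT replicate 4 was the lowest of its group for 30 of 57. The coefficient of variation between libraries of a group was 6.00% (median over members) for WT and 8.84% for LRP1 eKO, and Cenpf varied most within WT (29.8%). Members with a WT mean under 5 had a median ratio of 56.1% of WT (15 genes), those between 5 and 15 of 52.7% (22 genes) and those of 15 or more of 50.1% (20 genes).

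Cyclins, Cdk1 and the Cdc25 phosphatases, which drive entry into mitosis, were lower for 6 of 6 genes, with a median log2 fold change of -0.92. Ccnb2, a B-type cyclin gene at chr9:70407692-70421547 of GRCm38, had the smallest adjusted p of the group, with WT signals of 20.6, 20.6, 21.7 and 20.6 and LRP1 eKO signals of 9.01, 8.26, 9.75 and 9.21. The groups were far apart and each was narrow, although WT replicate 3 stood slightly above the other WT libraries. The fold change of Ccnb2 was -1.12 (SE 0.055, adjusted p = 6.6e-07 by limma). Ccnb1, the cyclin whose degradation ends mitosis, fell from 28.3 ± 1.94 to 12.4 ± 0.721 (SD, n = 4 each), and Ccna2, the cyclin of S and G2 phase, fell from 18.6 ± 0.578 to 8.82 ± 0.633 (SD, n = 4 each). Their kinase Cdk1 fell to 55.4% of its WT mean. The phosphatases that activate Cdk1 split in size, since Cdc25c fell to 42.5% and Cdc25b to 67.5% of WT. For Ccnb1, 40.6% of the 50-base stretches of its coding transcripts also occur in transcripts of other genes, pseudogenes among them, so that its value is uncertain, as are those of Mybl2 (23.8%) and Cdc20 (11.4%). The share was 7.39% or less for the other 54 members.

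The transcription factors that switch on G2/M genes were lower for 2 of 2, with fold changes smaller than the members' median. Foxm1, a forkhead activator of G2/M genes, had WT signals of 7.66, 7.19, 7.34 and 6.57 and LRP1 eKO signals of 5.12, 4.74, 5.42 and 5.22. All LRP1 eKO libraries were below all WT libraries, with WT replicate 4 the lowest of the WT libraries. Its fold change was -0.42 (SE 0.062, adjusted p = 0.00067 by limma), and Mybl2, which joins MuvB at CHR promoters, had a fold change of -0.52 (SE 0.12, adjusted p = 0.0076 by limma). Whether the fold change of either gene differs from that of the other members was not tested.

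Mitotic kinases were lower for 4 of 4 genes, with a median log2 fold change of -0.82. Aurka, which matures the centrosomes and builds the spindle, had WT signals of 13.3, 14.3, 12.99 and 13.4 and LRP1 eKO signals of 7.07, 6.43, 6.87 and 7.09. Every WT library was above every LRP1 eKO library by a wide margin, and neither group held a library far from the rest. The fold change was -0.88 (SE 0.053, adjusted p = 2.4e-06 by limma). Plk1, the polo kinase of mitotic entry and exit, fell to 53.1%, Nek2, which splits the centrosome pair, to 48.1%, and Melk, a kinase expressed with the mitotic genes, to 53.4% of WT.

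The chromosomal passenger complex, which corrects faulty attachments of chromosomes and later marks the division plane, was lower for 4 of 4 subunits. Cdca8 (borealin) had WT signals of 15.4, 14.6, 14.8 and 14.2 and LRP1 eKO signals of 7.90, 7.90, 8.32 and 8.76. Values within each genotype stayed close together and the gap between genotypes was wide. It differed by -0.78 (SE 0.052, adjusted p = 4.7e-06 by limma) on the log2 scale. The kinase subunit Aurkb fell to 49.99% and Birc5 (survivin) to 51.8% of WT, whereas the scaffold Incenp fell to 75.5%.

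Spindle assembly checkpoint genes were lower for 4 of 4 members, with a median log2 fold change of -0.69. Mad2l1, which inhibits Cdc20 at unattached kinetochores, had WT signals of 22.3, 21.2, 20.8 and 22.5 and LRP1 eKO signals of 12.96, 10.9, 12.6 and 12.3. LRP1 eKO replicate 2 was the lowest library, and no LRP1 eKO value reached the WT range. The fold change was -0.79 (SE 0.059, adjusted p = 9.5e-06 by limma). The checkpoint kinases Bub1 and Ttk (Mps1) fell to 56.1% and 49.6% of WT, and the Cdc20 inhibitor Bub1b (BubR1) fell to 59.7%.

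Centromere and kinetochore genes were lower for 8 of 8 members, 6 of them to under 50% of WT. Cenpa, at chr5:30666777-30674830, encodes the histone H3 variant that marks the centromere and had the most negative fold change of all members, with WT signals of 20.2, 20.7, 20.9 and 22.1 and LRP1 eKO signals of 9.54, 8.13, 9.78 and 8.43. The values formed separate groups, with LRP1 eKO replicates 2 and 4 below replicates 1 and 3. The fold change was -1.14 (SE 0.064, adjusted p = 1.6e-06 by limma). The 4 subunits of the Ndc80 complex, which grips the microtubule end, fell together, to 49.7% (Ndc80), 44.96% (Nuf2), 43.9% (Spc24) and 48.2% (Spc25) of WT. Cenpf, a kinetochore protein of G2 and M phase, fell to 39.05% but had a wide spread within WT, from 1.83 to 3.34. Its LRP1 eKO signals of 0.90, 0.81, 0.85 and 1.29 lay around the filter's limit of 1. The kinetochore kinesin Cenpe and the inner kinetochore gene Cenpk fell to 68.3% and 58.2% of WT.

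Genes of chromosome condensation and the chromosome surface were lower for 8 of 9 members, with a median log2 fold change of -0.79. Kif22, a chromokinesin that pushes chromosome arms toward the spindle equator, had WT signals of 11.7, 10.7, 11.5 and 12.4 and LRP1 eKO signals of 5.28, 4.87, 5.79 and 5.34. The lowest WT library was far above the highest LRP1 eKO library. The fold change of Kif22 came to -0.99 (SE 0.064, adjusted p = 3.6e-06 by limma). Top2a, the topoisomerase that untangles sister chromatids, had WT signals of 32.6, 30.8, 32.7 and 33.4 and LRP1 eKO signals of 15.2, 12.7, 16.2 and 16.1, and its fold change was -1.06 (SE 0.074, adjusted p = 5.8e-06 by limma). LRP1 eKO replicate 2 was the lowest library and the other LRP1 eKO libraries lay close together.

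Mki67, the surface protein of mitotic chromosomes that is the customary marker of proliferating cells, had WT signals of 6.67, 6.81, 6.22 and 5.95 and LRP1 eKO signals of 4.15, 3.73, 4.43 and 3.97. The groups did not overlap, but the ratio of 63.5% was higher than that of Top2a. For Mki67 the fold change was -0.55 (SE 0.065, adjusted p = 0.00017 by limma). The condensin I subunits Ncapg, Ncaph and Ncapd2 fell to 50.9%, 48.2% and 52.4% of WT, and the chromokinesin Kif4 fell to 48.1%. The ATPase pair Smc2 and Smc4, which both condensins share, had higher ratios than these subunits, a difference that was not tested. Smc2 fell to 68.2% of WT, with WT replicate 4 at 7.21 beside 10.5 to 10.7 in the other WT libraries. Smc4 (chr3:69004738-69034623) had WT signals of 21.7, 20.3, 19.98 and 16.4 and LRP1 eKO signals of 16.8, 15.1, 18.02 and 19.1, with overlapping groups, and a fold change of -0.17 (SE 0.093, adjusted p = 0.16 by limma).

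Spindle motors and microtubule-associated proteins were lower for 8 of 8 members, with a median log2 fold change of -0.74. Kif2c, a kinesin that takes microtubules apart at kinetochores, had WT signals of 8.003, 7.70, 7.90 and 8.75 and LRP1 eKO signals of 3.77, 3.27, 3.41 and 3.14. The ratio of 41.999% was the lowest of the group and no library overlapped. The fold change of Kif2c was -1.05 (SE 0.064, adjusted p = 2.7e-06 by limma). Nusap1, which bundles microtubules near chromosomes, fell to 45.4%, and Kif11, the motor that pushes the spindle poles apart, fell to 54.2% of WT. The Aurora A activator Tpx2 fell to 64.7%, Hmmr (RHAMM) to 53.4%, Ckap2 to 56.6%, and the kinesins Kif18b and Kif15 to 58.6% and 60.8%.

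Central spindle and cytokinesis genes were lower for 6 of 7 members, with a median log2 fold change of -0.65. Kif20a, a kinesin that carries the passenger complex to the central spindle, had WT signals of 12.3, 12.7, 12.9 and 12.1 and LRP1 eKO signals of 6.36, 6.14, 6.82 and 6.28. Both groups were tight and there was no overlap. Its fold change was -0.87 (SE 0.051, adjusted p = 2e-06 by limma). Kif23 and Racgap1, the partners of centralspindlin, fell to 50.3% and 61.5%, the microtubule bundler Prc1 to 55.1%, Kif20b to 63.1% and the exchange factor Ect2 to 60.997% of WT. Anln (anillin, chr9:22332012-22389188), the scaffold of the contractile ring, had WT signals of 39.5, 38.6, 37.6 and 26.7 and LRP1 eKO signals of 30.01, 30.6, 31.2 and 31.7, with a fold change of -0.18 (SE 0.11, adjusted p = 0.2 by limma). WT replicate 4 was below all LRP1 eKO libraries, and the other WT libraries were above all of them. With WT replicate 4 left out, both genes were called lower, Anln by -0.31 (adjusted p = 0.00024 by limma) and Smc4 by -0.25 (adjusted p = 0.024 by limma) on the log2 scale.

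Partners of the anaphase-promoting complex and genes of mitotic exit were lower for 4 of 5 members. Cdca3, an adaptor that targets the Cdk1 inhibitor Wee1 for degradation, had WT signals of 19.8, 19.2, 17.98 and 18.005 and LRP1 eKO signals of 9.80, 8.64, 8.13 and 9.62. No LRP1 eKO library came near the WT range. The fitted fold change was -0.98 (SE 0.066, adjusted p = 4.9e-06 by limma). Ube2c, the ubiquitin-conjugating enzyme of the complex, fell from 46.1 ± 2.37 to 21.4 ± 2.29 (SD, n = 4 each), and its activator Cdc20 fell from 23.1 ± 0.884 to 11.02 ± 1.17 (SD, n = 4 each). The protease separase and its inhibitor securin, which control the cleavage of cohesin at anaphase, were the members of this group with the smallest fold changes. Separase (Espl1) had WT signals of 1.64, 1.73, 1.72 and 1.41 and LRP1 eKO signals of 1.04, 1.03, 1.24 and 1.08, the smallest decrease on the log2(signal + 1) scale among the members called (-0.32 (SE 0.068, adjusted p = 0.0046 by limma)). As a ratio to WT, Espl1 was at 67.6%, and Incenp (75.5%) and Foxm1 (71.3%) were among the called members that fell less. Securin (Pttg1, chr11:43420250-43426251) had WT signals of 29.96, 27.7, 28.7 and 33.8 and LRP1 eKO signals of 29.2, 28.3, 28.04 and 26.2. The groups overlapped in part, the LRP1 eKO mean was 92.9% of WT, and the fold change was -0.10 (SE 0.065, adjusted p = 0.24 by limma). Without WT replicate 4, the highest of the WT libraries, the fold change of Pttg1 was -0.044 (adjusted p = 0.47 by limma).

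**Figure D2:**
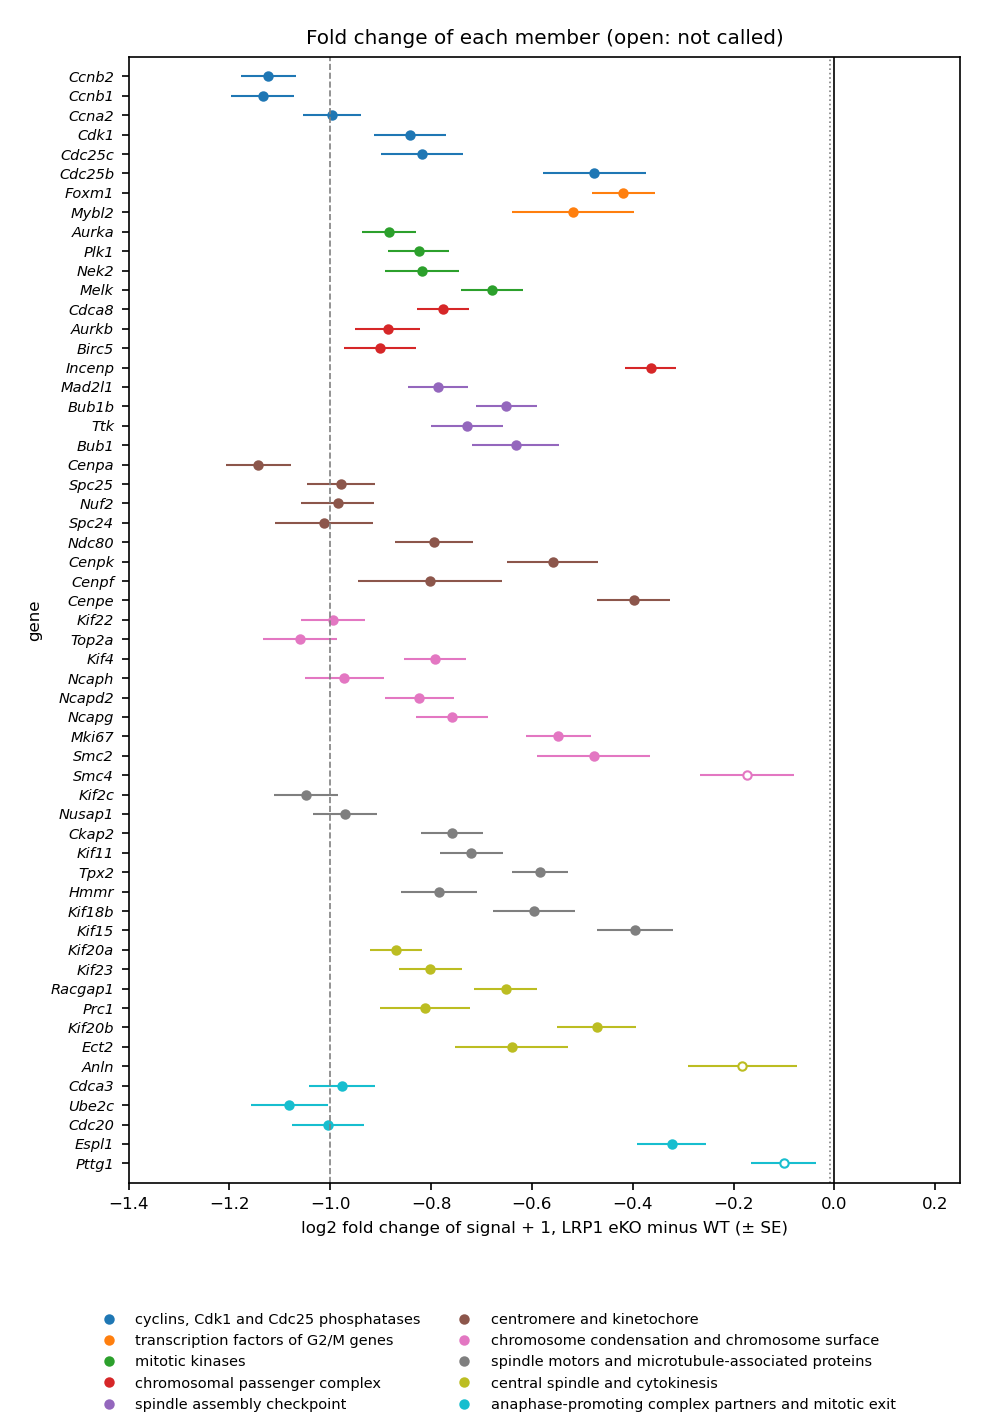
Log2 fold change (LRP1 eKO minus WT, difference of mean log2(signal + 1), n = 4 libraries each) of the 57 members with its limma standard error, coloured by role, filled where the adjusted p was below 0.05. The dashed line marks a 2-fold decrease and the dotted line the median of all genes tested, and the open circles are Smc4, Anln and Pttg1.

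**Figure D3:**
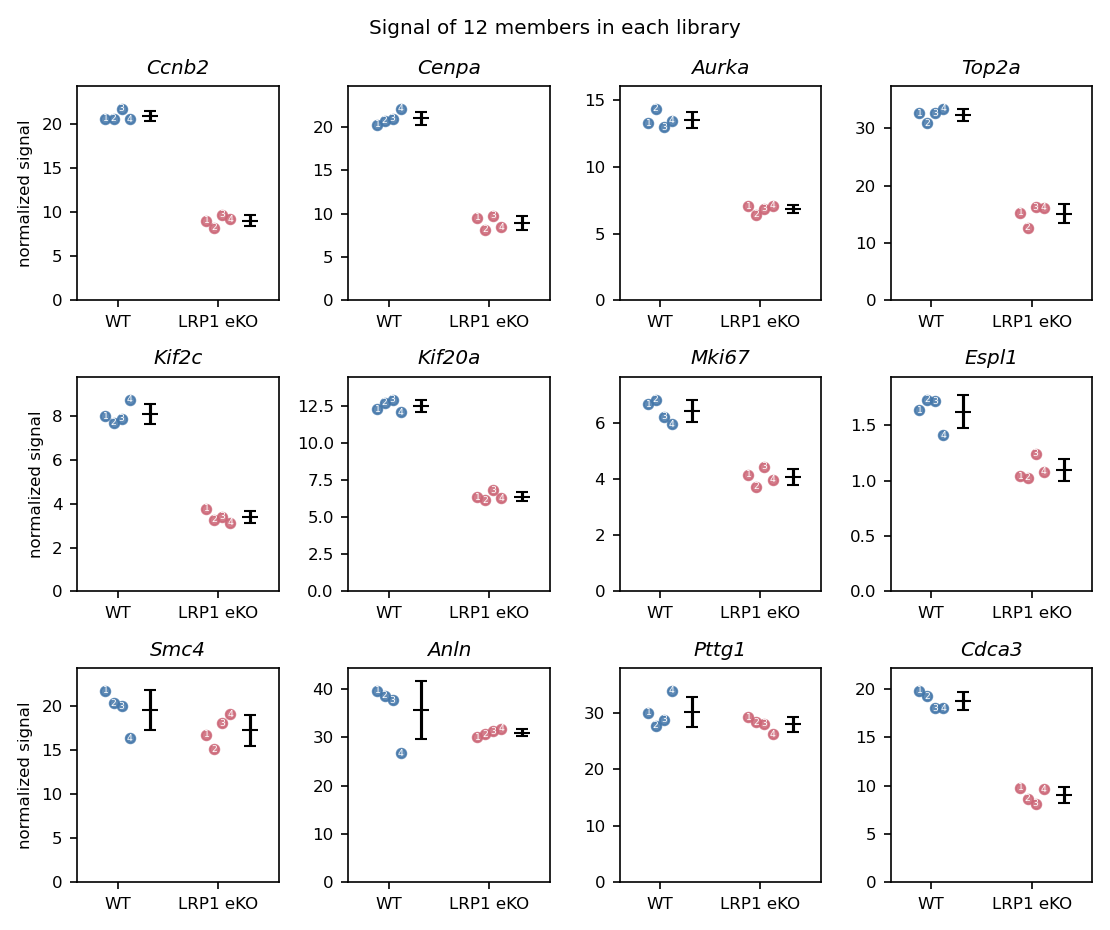
Normalized signal of 12 members in each library (points, numbered by replicate) with the group mean and SD (n = 4). Groups are separate in 9 panels and overlap for Smc4, Anln and Pttg1, where WT replicate 4 is the lowest WT library for Smc4 and Anln and the highest for Pttg1.

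The plots of fold changes and of single members show fold changes of unequal size within most roles. The lower end was held by Cenpa, Ccnb1, Ccnb2, Ube2c, Top2a and Kif2c, and the upper end by Espl1, Incenp, Cenpe, Kif15 and the 3 genes that were not called. The members lie on 17 chromosomes, with 10 on chromosome 2 and 6 each on chromosomes 9 and 11.

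Genes of the rest of the mitotic machinery were mostly lower or not called. Of 125 other mitotic genes tested, 70 were lower, 4 were higher (Wapl, Pds5a, Ndel1 and Cdc27) and 51 were not called, with a median log2 fold change of -0.24. The share called lower was 56%, beside 22.2% of all genes tested, of which 19% were higher. The mean was lower in LRP1 eKO for 103 of the 125. Other condensin, centromere and kinetochore genes were lower for 26 of 34 (median -0.39), other spindle, centrosome and cytokinesis genes for 23 of 42 (median -0.19) and other regulators of mitotic entry and exit for 8 of 17 (median -0.24). Fam64a, a gene known to be induced in mitosis, had the smallest adjusted p of these lists, with WT signals of 12.1, 12.4, 12.9 and 13.1 and LRP1 eKO signals of 5.17, 5.45, 4.79 and 4.74 and a fold change of -1.17 (SE 0.057, adjusted p = 6.3e-07 by limma). Fam83d, which recruits a casein kinase to the spindle, fell to 44.9% of WT, and Cks1b, a small subunit of Cdk1 and Cdk2, fell to 61.1%.

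Complexes that also work outside mitosis, or that are present throughout the cell cycle, held genes that were lower, higher and not called. For the anaphase-promoting complex, its activators and its cofactors, 8 of 17 genes were lower and 1 was higher, with a median log2 fold change of -0.15. For cohesin and its regulators, 5 of 15 were lower and 2 were higher, with a median of 0.03. Of these 15, the mitotic protectors of cohesion Sgol1 and Sgo2a and the S-phase cohesion factors Esco2 and Cdca5 fell to 58.2%, 67.9%, 54.6% and 63.5% of WT, and the core subunit Smc1a fell to 89.6%. The cohesin release factor Wapl rose from 17.6 ± 2.12 to 22.2 ± 1.10 (SD, n = 4 each) and its partner Pds5a from 11.1 ± 1.70 to 13.9 ± 0.118 (SD, n = 4 each), while the core subunits Smc3 and Rad21 had ratios of 96.7% and 90.9% and were not called. Ndel1, a dynein regulator, rose to 117.9% of WT. In Wapl and Pds5a, WT replicate 4 was far below the other WT libraries, and Pds5a and Ndel1 lost their calls under several settings.

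**Figure D4:**
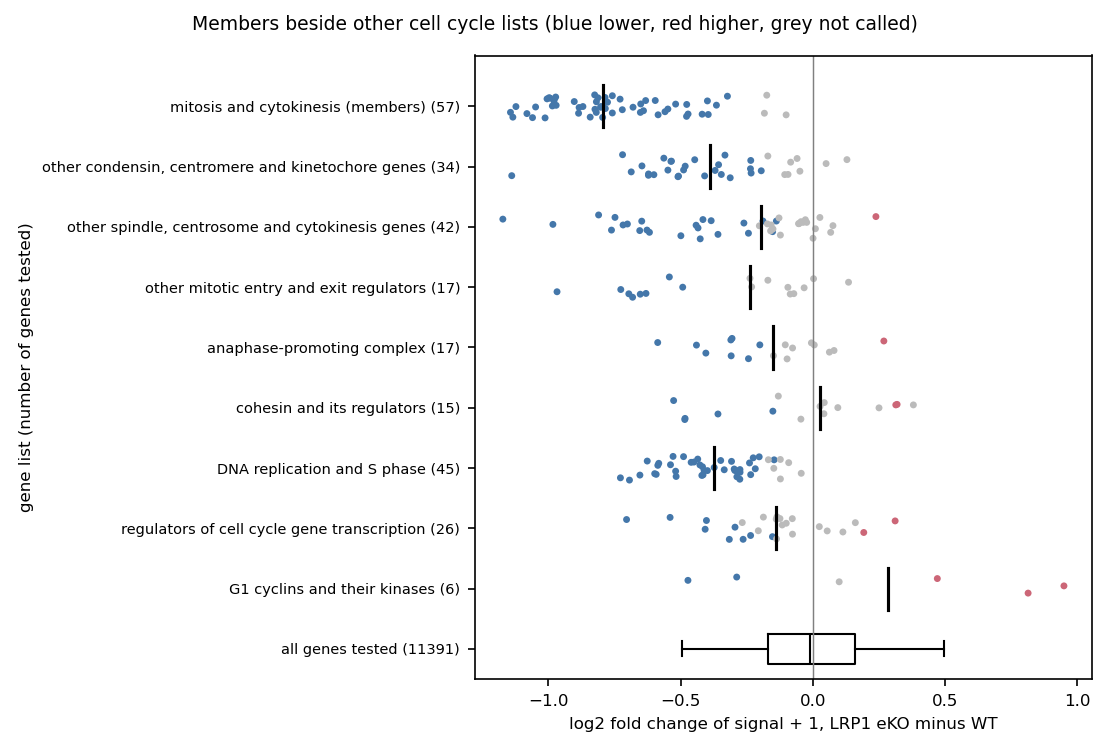
Log2 fold changes (LRP1 eKO minus WT) of the members and of other cell cycle lists, 1 point per gene tested and a bar at each median, with a box for all genes tested (median, quartiles and 5th to 95th percentiles). The members' median of -0.79 lies to the left of the DNA replication list (-0.37) and of the other mitotic lists, and the G1 list holds 3 genes that were higher.

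Upstream of mitosis, DNA replication and S-phase genes were lower for 39 of 45 and higher for 0, with a median log2 fold change of -0.37. The single-strand DNA binding subunit Rpa2 had a fold change of -0.63 (SE 0.056, adjusted p = 2.6e-05 by limma), and Tk1, the S-phase thymidine kinase, had one of -0.73 (SE 0.071, adjusted p = 5.1e-05 by limma). Among 26 tested regulators of cell cycle transcription, which include E2F, pocket protein, MuvB and NF-Y genes and Cdk inhibitors, 9 were lower and 2 were higher (Cdkn1a and E2f1). The inhibitors of Cdk4 and Cdk6 encoded by Cdkn2c and Cdkn2d fell to 57.6% and 66.7% of WT, Cdkn1a (p21) rose to 124.03%, and the MuvB subunit Lin9 fell to 72.7%. The MuvB subunits Lin37, Lin52 and Lin54 and the NF-Y subunits Nfya, Nfyb and Nfyc were not called.

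Of the 3 D-type cyclins of G1, Ccnd1 and Ccnd2 were higher, unlike the mitotic cyclins, and Ccnd3 was not called. Ccnd1, the D-type cyclin that growth signals induce, had WT signals of 17.8, 17.8, 17.5 and 14.1 and LRP1 eKO signals of 30.1, 30.6, 29.6 and 30.2. All LRP1 eKO libraries were above all WT libraries, and WT replicate 4 was the lowest WT library. Ccnd1 had a fold change of 0.81 (SE 0.072, adjusted p = 2.6e-05 by limma). Ccnd2 rose to 193.4% and Cdk6 to 144.4% of WT, whereas Cdk4, with a fold change of -0.47 (SE 0.052, adjusted p = 0.00011 by limma), and Cdk2, at 80.2% of WT, were lower.

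The promoter code shown above was then counted over all members with an entry. RefSeq promoter windows of 250 bases before to 50 bases after a start site were found for 48 of the 57 members (52 windows); the others were Aurkb, Ccna2, Cdc25c, Foxm1, Incenp, Kif20a, Smc4, Spc24 and Tpx2. The CHR sequence TTTGAA, on either strand, was present in 69.2% of these windows, beside 17.9% of all 32851 RefSeq promoter windows of the same length and 1288 of the 10765 windows of genes tested here. The variant TTTAAA was in 17.3% of member windows and 13.2% of all windows. The CCAAT box was in 75.0% of member windows and 37.4% of all windows, and TTTGAA and CCAAT occurred together in 59.6% beside 6.95%. The E2F sequences TTTCCCGC and TTTGGCGC were rare in members, at 1.92% and 3.85% of windows, beside 1.07% and 0.514% of all. None of these motifs contains another, although neighbouring matches can share an end letter, and the shares are descriptions without a test, since many mitotic genes are known CHR targets.

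**Figure D5:**
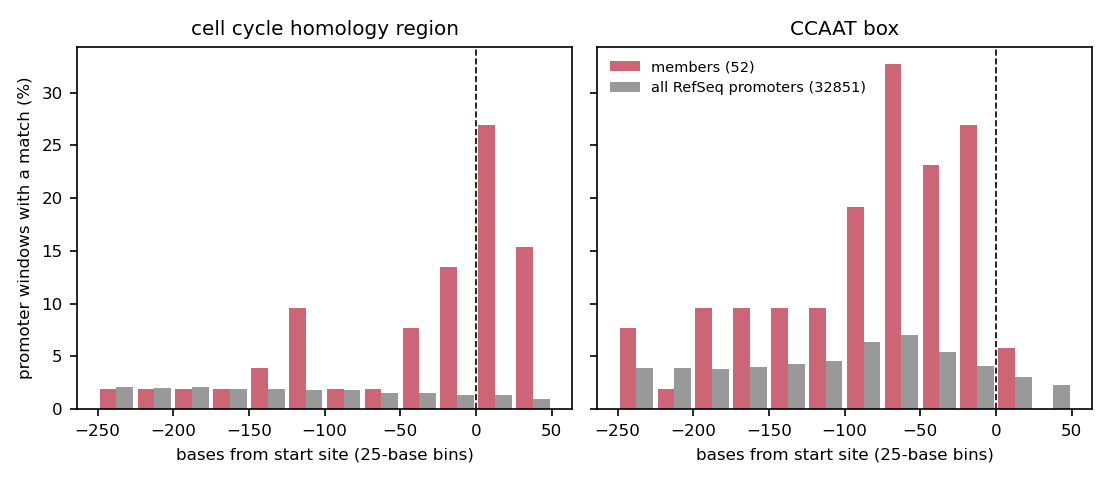
Share of promoter windows with a match to the CHR (TTTGAA) or to the CCAAT box in each 25-base bin around the RefSeq start site, for 52 windows of members and 32851 windows of all genes. CHR matches of members gather around the start site, with 26.9% of windows in the first 25 bases after it beside 1.31% of all windows, and CCAAT matches lie upstream of them.

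Matches in members also had a position, as the plot of motif positions shows. Within 50 bases of the start site, TTTGAA was found in 61.5% of member windows and in 4.94% of all windows. CCAAT matches were most frequent in the bin from 75 to 50 bases before the start site, at 32.7% of member windows and 6.99% of all windows. Among the cell cycle lists, 30.4% of the windows of other mitotic genes and 18.2% of those of DNA replication and S-phase genes held TTTGAA, and of 5 windows of G1 cyclins and their kinases 0 held it.

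The median fold changes of members with and without the motif lay close together. The 34 members with TTTGAA had a median log2 fold change of -0.79, with 33 lower, and the 14 with an entry but no TTTGAA had one of -0.73, with 13 lower. Among the other mitotic genes, the 31 tested genes with TTTGAA had a median of -0.43 (22 lower) and the 67 without it one of -0.14 (30 lower). Over all genes tested, 26.7% of the 1190 genes with TTTGAA were lower, beside 21.6% of the 7201 without it. Anln, whose promoter window holds TTTGAA, and Pttg1, whose window inside the gene does not, were both among the members that were not called. A match is only a string in the window, and binding was not measured.

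Transcripts of hepatocytes and skeletal muscle were lower in the same LRP1 eKO libraries as the members. Hepatocyte markers were lower in LRP1 eKO libraries for 6 of 6 genes tested, with sums of 71.2 to 101 in WT and 24.1 to 31.7 in LRP1 eKO. Cyp2e1, Tat and Hnf4a of this list were below 1 in every library. Skeletal muscle markers were lower for 5 of 5, with sums of 35.5 to 59.0 and 6.47 to 7.97. Myh3, Myh8, Ckm, Actn2 and Myod1 were below 1 in every library. Of macrophage and Kupffer cell markers 1 of 9 tested was higher and 0 were lower. Their sums were 113 to 222 in WT and 52.8 to 736 in LRP1 eKO, and Clec4f and Timd4 were below 1 in every library. LRP1 eKO replicate 2 was the lowest library for both this list and the members. Cholangiocyte markers, of which 1 of 3 was lower and 0 were higher, summed to 301 to 356 and 233 to 696. Most of this sum came from Spp1 (means of 163 in WT and 378 in LRP1 eKO) and Krt7 (141 and 113). Epcam was below 1 in every library, and Sox9 had means of 0.63 and 0.93. Sinusoidal endothelial markers, of which 1 of 5 was higher and 0 were lower, summed to 37.2 to 40.5 and 38.1 to 60.7. Most of the WT sum came from Gata4, with means of 29.6 in WT and 29.4 in LRP1 eKO. Stab2 and Clec4g had means of 0.50 and 0.32 in WT and 1.13 and 0.84 in LRP1 eKO, and Dnase1l3 was below 1 in every library. Oit3, the gene called higher, had means of 0.61 in WT and 2.54 in LRP1 eKO. Stab1 (3.01 and 6.80) and Fcgr2b (2.18 and 5.60) had overlapping groups and were not called. Of the 5 tested, 1 (Gata4) had a lower mean in LRP1 eKO. The part of these lists in the result for the members was not tested.

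Erythroid markers summed to 24.9 to 58.1 in WT and 14.7 to 24.8 in LRP1 eKO libraries, with 7 of 12, Klf1 and Gata1 among them, below 1 in every library. Outside WT replicate 2, nearly all of the sum came from Alas2, the heme synthesis enzyme of erythroid cells and the single erythroid gene tested, with WT signals of 24.6, 26.5, 26.1 and 29.1 and LRP1 eKO signals of 23.3, 14.6, 24.7 and 18.5. Alas2 was called lower (-0.40, SE 0.14, adjusted p = 0.043 by limma) although the groups overlapped by 1 library, and its lowest library was LRP1 eKO replicate 2, as for the members. The 4 globin genes of the list were above 0 in WT replicate 2 and at 0 in the other libraries. Whether erythroid transcripts take part in the result for the members was not tested. Myeloid progenitor and neutrophil markers summed to at most 1.98 in WT and 3.70 in LRP1 eKO libraries, with Ctsg and Ly6g at 0, and the 1 gene tested was called higher. T and B lymphocyte markers were below 1 in every library for 10 of 10 genes, with Cd3g and Cd79b at 0.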

How the data were processed

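Cells described as liver microvascular ECs of 4 WT and 4 LRP1 eKO samples were profiled by mRNA-seq (RNeasy RNA, TruSeq libraries), and the sample labels gave the genotype and number of every library. The authors deposited quantile-normalized signal values of 22520 protein-coding genes, a column for each library. The study's methods name trimGalore, STAR on mm10, featureCounts with GENCODE and edgeR, the submitters' processing notes name TopHat2, Cufflinks and mm10, and how this table was made, and its unit before normalization, are not given in the sources used here. Quantile normalization removes a global shift between libraries, the depth is unknown and no counting interval was computed. The number of genes at 0 ranged from 6186 to 6621 per library.

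From the signal, log2(signal + 1) was tested with limma 3.58.1 (R 4.3.3), with a term for genotype and a trend of variance on mean, and adjusted by Benjamini-Hochberg over the 11391 genes whose signal reached 1 in 4 or more of 8 libraries. The fit was tested on simulated data with known changes. Fold changes are on this scale. The study's counts and count test were not used here. The members and the other lists were chosen with earlier results of these data known, and the lists of other mitotic, S-phase, G1 and regulator genes are descriptions with counts and medians only. Values in every library are given for the member with the smallest adjusted p in each of 10 roles, the extremes among the members called, every member not called, Mki67 and Top2a. Of other mitotic genes the 3 with the smallest adjusted p in each direction were named, and of each neighbouring list 2. Other genes of these lists that are named, Sgol1 and Cdkn1a among them, and the promoter of Pttg1, were picked with their values in view. Cell type lists were given by counts and sums. Single genes of these lists that are given with values, Cdh5, Col1a2 and Alas2 among them, were picked without a rule and with the values known.

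Gene coordinates came from GENCODE M21 (GRCm38, the assembly also called mm10). Promoter windows came from RefSeq on GRCm38.p6, matched by gene identifier or symbol, and motifs were searched on both strands. Stretches of 50 bases shared between genes were counted over the GENCODE transcripts. Python 3.11.15 with matplotlib 3.10.9 drew the figures. As alternatives, pseudocounts of 0.1 and 5, dropping the filter, a mean signal of at least 5, limma without trend, robust moderation, array weights, centring of each library on its trimmed mean (30% off either end), a block for the replicate number, an adjusted p of 0.01, leaving out each library in turn and leaving out both libraries that stood apart were run. Promoters were printed for the 6 members outside chromosome 18 with the smallest adjusted p among those whose window holds TTTGAA or TTTAAA, and for Pttg1. Heart and lung EC libraries were not analysed here.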

Additional observations from a re-analysis of the deposited data

Results flagged for a closer look

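For each member, for the mean of each role and for the other named genes, the gap between the highest or the lowest library of a genotype and its neighbour was divided by the range of the 4 libraries, and 13 of 162 groups passed Dixon's 95% critical value, where chance alone gives about 1 in 20, or 8.1. WT replicate 4 was the lowest of the WT libraries for Plk1 (11.8 beside 13.6 to 13.7, ratio 0.927), Smc2 (7.21 beside 10.5 to 10.7, ratio 0.947), Hmmr (7.92 beside 9.49 to 9.76, ratio 0.849), Ect2 (10.05 beside 14.04 to 14.6, ratio 0.883) and Anln (26.7 beside 37.6 to 39.5, ratio 0.854). The mean log2(signal + 1) of the central spindle and cytokinesis role was lowest in the same library (3.59 beside 3.81 to 3.84, ratio 0.861). Outside the members, WT replicate 4 was the lowest WT library for Wapl (ratio 0.881), Pds5a (ratio 0.843) and Ccnd1 (ratio 0.903) and the highest for Cdk4 (ratio 0.846).

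The other ratios were 0.924 for Ccnb2, highest in WT replicate 3 (21.7 beside 20.6 in the other WT libraries), and, for Cenpk, 0.857 in WT, where WT replicate 1 was lowest (2.73 beside 3.43 to 3.55), and 0.834 in LRP1 eKO, where replicate 4 was highest (2.34 beside 1.74 to 1.84). Of these members, Anln was not called with all libraries and was called lower without WT replicate 4. The other members named here were called lower with all libraries.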

How the results depend on the processing

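In all 18 alternative fits every member tested had a lower mean in LRP1 eKO libraries. Of 57 members, 54 were lower in every fit with all genes except array weights, without WT replicate 4 and without both libraries that stood apart, which gave 56, and a mean signal of at least 5 left 38 members to test, of which 35 were lower. Leaving out 1 library gave 54 to 56. The same 3 genes were not called where 54 were lower, and Pttg1 was not called in any fit. The count of members with a 2-fold decrease depended most on the scale: it was 19 with a pseudocount of 0.1, 0 with a pseudocount of 5, 5 without LRP1 eKO replicate 2 and also without both libraries that stood apart, and 5 to 12 over the libraries left out. A ratio of mean signals without a pseudocount, an alternative chosen after seeing the data, gave 22 members at 2-fold. The median log2 fold change of members was -0.90 and -0.47 with pseudocounts of 0.1 and 5 and -0.86 with a mean signal of at least 5. Of other mitotic genes, 33 were lower with a mean signal of at least 5, where fewer genes were tested. Pds5a lost its call in 4 alternatives and Ndel1 in 7; the cause was not tested.

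No pairing by replicate number was seen, since the correlations of same-numbered deviations were -0.086, -0.13, 0.178 and 0.0378. Libraries of different numbers reached -0.264 (WT replicate 4 with LRP1 eKO replicate 3) and 0.212 (WT replicate 2 with LRP1 eKO replicate 3). So few correlations cannot exclude a pairing. With the replicate number as a block, 54 members were lower, and 19.4% of all genes tested were lower.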
